A study of Mus musculus with 36 samples.

Results

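The genes described here are the ligands of the chemokine receptor CXCR3, *Cxcl9*, *Cxcl10* and *Cxcl11*, and the receptor gene *Cxcr3* itself. They were chosen by name and found by Ensembl identifier, and they make up 4 of the 52636 genes counted in each of 36 RNA sequencing libraries. The libraries were made from whole intestines of mouse embryos at E18.5 and from untreated mouse embryonic fibroblasts (MEFs), with 3 biological replicates of each genotype. The mice were on a C57BL/6N background. All but the *Mlkl*-/- controls carried point mutations of the apoptosis protease caspase-8, with or without loss of its partners and of other cell death genes. The question was which chemokine transcripts rose in these embryos, and how each ligand behaved once caspase-1, the type I interferon receptor or FADD was also missing.

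Caspase-8 is recruited through the adaptor FADD and pairs with cFLIP, the product of *Cflar*. MLKL executes necroptosis, caspase-1 drives inflammatory cell death and processes interleukins, and IFNAR1 is a subunit of the receptor for type I interferons. The D387A knock-in allele of *Casp8* is written here as *Casp8* 1xDA, and the C362A allele replaces the catalytic cysteine. The D387A intestines comprised *Mlkl*-/- controls, embryos with *Casp8* 1xDA/1xDA alone, and embryos of genotype *Casp8* 1xDA/1xDA *Cflar*-/- *Mlkl*-/- (named *Cflar*-null D387A), followed by the same genotype with *Casp1*-/- (*Casp1*-null D387A), that genotype with *Ifnar1*-/- (*Casp1*/*Ifnar1*-null D387A), and that genotype with *Fadd*-/- in place of *Ifnar1*-/- (*Casp1*/*Fadd*-null D387A). The C362A intestines comprised their own *Mlkl*-/- controls, *Casp8* C362A/C362A *Mlkl*-/- (C362A), *Casp8* C362A/C362A *Mlkl*-/- *Casp1*-/- (*Casp1*-null C362A) and *Casp8* C362A/C362A *Cflar*-/- *Mlkl*-/- (*Cflar*-null C362A). The MEFs were *Mlkl*-/- or *Casp8* 1xDA/1xDA *Cflar*-/- *Mlkl*-/-. *Mlkl* was therefore deleted in every group except the *Casp8* 1xDA/1xDA embryos, so that comparison also differs in *Mlkl*.

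CXCL9, CXCL10 and CXCL11 are secreted chemokines that attract activated T cells and natural killer (NK) cells through CXCR3, a G protein-coupled receptor. All of them are induced by interferon gamma. *Cxcl9* is known as the ligand that relies most on interferon gamma, whereas *Cxcl10* and *Cxcl11* are also induced by type I interferons, and *Cxcl10* by NF-κB. In the intestine these chemokines are known from infection and inflammatory disease.

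Reads on genes numbered 17943524 to 27721024 per library in the 18 D387A intestines, 21757868 to 31052238 in the 12 C362A intestines and 20927014 to 32307629 in the 6 MEF libraries. Levels are given as reads and as RPKM, reads per kilobase of gene width relative to the total of reads on genes, with totals scaled by TMM within each of these sets. RPKM values of different sets are therefore placed side by side on scales set separately. A gene was called where edgeR's quasi-likelihood test gave an adjusted p (Benjamini-Hochberg over all genes tested in the set) under 0.05 and a log2 fold change beyond 1 in either direction. The p-values measure variation among biological replicates, which in the intestines are embryos. Intervals for low counts cover counting error only.

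Reads of *Casp1* and *Fadd* bore out the labels. *Casp1* had 0 to 5 reads in the 12 intestines labelled as *Casp1*-null and 952 or more in every other intestine. *Fadd* had 15 to 23 reads in the *Fadd*-null intestines and 689 or more in the others. *Ifnar1* kept 813 to 893 reads in the *Ifnar1*-null intestines, against 1334 or more elsewhere, a log2 fold change of -1.37 against *Casp1*-null D387A, which does not tell a null allele from a partial loss. *Cflar* and *Mlkl* kept reads in the embryos labelled as null for them, and *Casp8* carries point mutations, so read counts check none of those labels.

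Tissue markers fitted the sources. In the *Mlkl*-/- control intestines of the D387A set, the 10 epithelial markers summed to 10689, 10402 and 9983 RPKM, led by *Fabp2*, a fatty acid binding protein of enterocytes. In the MEFs *Fabp2* and *Cdx2* were at 0 in every library, and the 8 fibroblast markers summed to 4161 to 4879 RPKM, led by the collagen genes *Col1a1* and *Col1a2*. In these bulk samples, fewer cells of a type and less RNA per cell cannot be told apart.

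The third *Casp1*-null D387A embryo stood apart from the other 2 of its group. It had 4522 reads of *Cxcl10*, against 851 and 1211, and 540 reads of *Cxcl11*, against 43 and 61. Its *Mlkl* reads numbered 966, against 138 and 166. Its 5 plasmacytoid dendritic cell markers summed to 752 RPKM, against 128 and 135, nearly all of it from *Bst2*, which type I interferon also induces. Comparisons with this group were also made without each of its embryos, an alternative chosen after seeing the data for the gene lists, and stated list counts that moved by more than 1.5 times are given with that embryo left out. Over all genes, the chi-square per degree of freedom between its reads and those of the others was 63.4 and 64.9, against 12.2 between those others. The third *Cflar*-null C362A embryo was similarly apart (60.2 and 59.5, against 22.1), but the calls of the 4 genes were the same without it, with *Cxcl9* at -2.59 under *Cflar* loss and 1713 genes called in place of 1177. List counts were not recomputed without this embryo or without embryos of other groups.

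*Cxcl9* lies on chromosome 5 at 92321347 to 92328079 of GRCm38, on the minus strand, and has an exonic width of 2889 bases. *Cxcl10* (92346638 to 92348889, width 1520 bases) and *Cxcl11* (92359544 to 92365485, width 3794 bases) follow on the same strand. *Cxcl11* is annotated as a polymorphic pseudogene in GENCODE M21, so its reads measure a transcript and do not show that a working CXCL11 protein was made in these mice. Where *Cxcl11* is counted among the ligands below, its transcript is meant. *Cxcr3* lies on chromosome X at 101731535 to 101734269, also on the minus strand, with a width of 1731 bases. *Art3*, on the plus strand from 92331827 to 92414628, spans *Cxcl10* and *Cxcl11*, and the treatment of strand in the counting is not given in the sources used here, so reads of overlapping exons cannot be told apart. *Art3* itself had 49 to 136 reads in the intestines. *Gm2673*, a processed pseudogene on the plus strand from 92363904 to 92365511, lies almost wholly within *Cxcl11* and had 2 or fewer reads in every library, so the same holds for it.

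**Figure D1:**
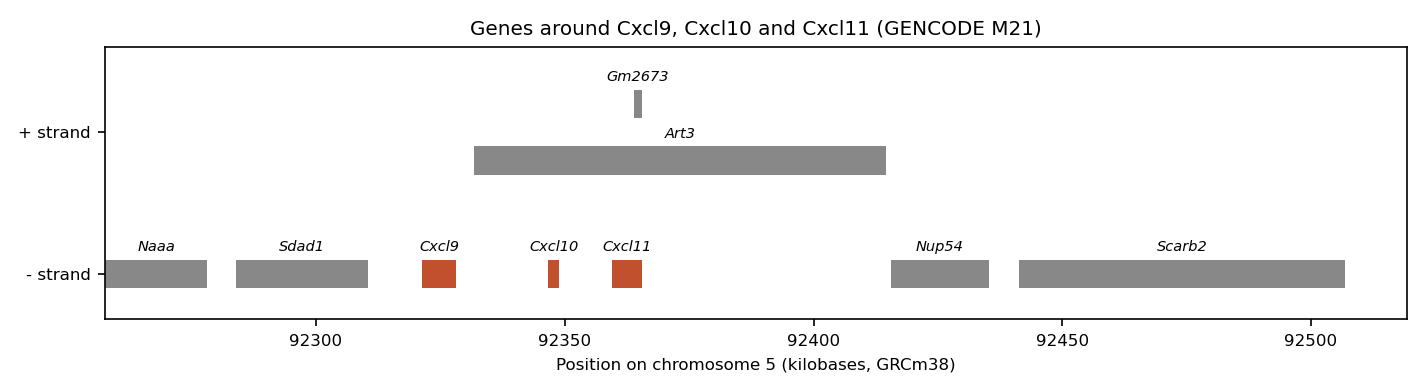
Map of the *Cxcl9*, *Cxcl10* and *Cxcl11* locus on mouse chromosome 5, with position in kilobases of GRCm38 on the horizontal axis and each gene drawn as a bar on its strand. The ligands (orange) lie next to each other on the minus strand, and *Art3*, on the plus strand, spans *Cxcl10* and *Cxcl11*.

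*Cxcl9* was near absent from control and *Casp8* 1xDA/1xDA intestines and abundant in *Cflar*-null D387A, C362A and *Cflar*-null C362A intestines, all of which kept *Casp1*. The *Mlkl*-/- controls had 9, 5 and 4 reads in the D387A set, and the *Casp8* 1xDA/1xDA embryos had 2, 6 and 8. *Cflar*-null D387A embryos had 2076, 1104 and 2372. In the C362A set, the controls had 6, 7 and 2 reads, C362A embryos 5747, 5290 and 5756, and *Cflar*-null C362A embryos 915, 812 and 1222. Every mutant of these last genotypes exceeded every control of its set by 2 orders of magnitude or more, and the *Casp8* 1xDA/1xDA embryos overlapped their controls.

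All genotypes that lacked *Casp1* had little *Cxcl9*. The reads were 45, 30 and 120 in *Casp1*-null D387A embryos, 64, 98 and 93 in *Casp1*/*Ifnar1*-null D387A, 23, 39 and 24 in *Casp1*/*Fadd*-null D387A and 81, 102 and 83 in *Casp1*-null C362A. These embryos lay above all controls of their set and far below all *Cflar*-null D387A, C362A and *Cflar*-null C362A embryos.

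Ordered by mean RPKM (SD, n = 3 each), *Cxcl9* stood at 69.7 (3.91) in C362A, 27.0 (8.61) in *Cflar*-null D387A and 12.9 (2.54) in *Cflar*-null C362A intestines, with no overlap between these groups. Next came *Casp1*-null C362A at 1.26 (0.185), *Casp1*/*Ifnar1*-null D387A at 1.23 (0.247), *Casp1*-null D387A at 1.05 (0.813) and *Casp1*/*Fadd*-null D387A at 0.437 (0.136), each overlapping its neighbour in this order. The mutant MEFs followed at 0.236 (0.0679), and below them the D387A set controls at 0.106 (0.0457), *Casp8* 1xDA/1xDA at 0.0788 (0.0332), the C362A set controls at 0.0633 (0.0289) and *Mlkl*-/- MEFs at 0.0435 (0.0211) overlapped each other in turn.

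*Cxcl10* was high in the intestines of all caspase-8 mutants but the *Casp8* 1xDA/1xDA embryos, with or without *Casp1*. The D387A set controls had 21, 40 and 30 reads and the *Casp8* 1xDA/1xDA embryos 17, 46 and 26. *Cflar*-null D387A embryos had 2675, 1765 and 3232 reads, *Casp1*/*Ifnar1*-null D387A 2965, 3772 and 4587, and *Casp1*/*Fadd*-null D387A 3287, 3430 and 3211. With the 851 to 4522 reads of the *Casp1*-null D387A group, the 12 mutants that lacked *Cflar* all lay far above the 6 other embryos of the set.

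In the C362A set, *Cxcl10* had 15, 31 and 19 reads in the controls, 6525, 5226 and 7898 in C362A, 5347, 6484 and 5637 in *Casp1*-null C362A and 3102, 1836 and 3127 in *Cflar*-null C362A embryos. The C362A groups with and without *Casp1* overlapped, and both exceeded the *Cflar*-null C362A group.

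By mean RPKM, *Cxcl10* was at 157 (SD 18.6, n = 3 here and for each group) in *Casp1*-null C362A, 155 (32.7) in C362A, 104 (22.5) in *Casp1*/*Ifnar1*-null D387A and 95.8 (3.22) in *Casp1*/*Fadd*-null D387A, where neighbours overlapped. Then came *Cflar*-null D387A at 70.9 (17.1), *Casp1*-null D387A at 67.6 (64.4) and *Cflar*-null C362A at 67.4 (20.1), again overlapping, and the range of the *Casp1*-null D387A group also overlapped all groups above it. The mean of the *Casp1*-null D387A group hides the spread of its embryos, at 25.4, 35.8 and 142. Mutant MEFs at 3.97 (0.837) were apart from all groups, and the D387A set controls at 1.02 (0.344), *Casp8* 1xDA/1xDA at 0.870 (0.340), *Mlkl*-/- MEFs at 0.748 (0.148) and the C362A set controls at 0.536 (0.169) overlapped in turn.

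*Cxcl11* was close to undetected in control intestines, with 1, 0 and 0 reads in the D387A set and 1, 1 and 2 in the C362A set. The *Casp8* 1xDA/1xDA embryos had 1, 3 and 1. It reached 102, 90 and 131 reads in *Cflar*-null D387A, 43, 61 and 540 in *Casp1*-null D387A, 465, 728 and 797 in *Casp1*/*Ifnar1*-null D387A and 438, 414 and 339 in *Casp1*/*Fadd*-null D387A embryos. In these D387A groups the embryos without *Casp1* reached higher levels than those with it, except for the lower 2 of the *Casp1*-null group.

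Among C362A set intestines, *Cxcl11* had 587, 694 and 847 reads in C362A, 1208, 1508 and 1052 in *Casp1*-null C362A and 347, 187 and 251 in *Cflar*-null C362A embryos. No group overlapped another. No read of *Cxcl11* was counted in any MEF library, where a count of 0 allows up to 3 reads.

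By mean RPKM, *Cxcl11* was highest in *Casp1*-null C362A intestines at 13.5 (2.68), apart from *Casp1*/*Ifnar1*-null D387A at 7.28 (1.89) and C362A at 6.72 (1.25), which overlapped. *Casp1*/*Fadd*-null D387A at 4.61 (0.614), *Casp1*-null D387A at 2.67 (3.56) and *Cflar*-null C362A at 2.64 (0.956) overlapped in turn. *Cflar*-null D387A at 1.20 (0.163) was apart from its neighbours in the order but within the wide range of *Casp1*-null D387A, and *Casp8* 1xDA/1xDA at 0.0198, the C362A set controls at 0.0139 and the D387A set controls at 0.00443 overlapped. Thus *Cxcl9* was highest in C362A intestines and *Cxcl11* in the same genotype without *Casp1*.

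*Cxcr3* was low throughout. Its reads numbered 32, 12 and 20 in the D387A set controls, 11, 27 and 31 in *Casp8* 1xDA/1xDA, 5, 6 and 13 in *Cflar*-null D387A, 15, 17 and 35 in *Casp1*-null D387A, 27, 22 and 21 in *Casp1*/*Ifnar1*-null D387A and 47, 42 and 53 in *Casp1*/*Fadd*-null D387A embryos. The C362A set had 25, 25 and 21 in controls, 36, 30 and 31 in C362A, 38, 57 and 41 in *Casp1*-null C362A and 22, 9 and 16 in *Cflar*-null C362A embryos. MEFs had 2 or fewer. The receptor transcript was thus lowest on average, among intestines of each set, in the *Cflar*-null mutants with intact *Casp1*, where the ligands were abundant.

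*Cxcr3* stood at 1.20 RPKM (SD 0.139, n = 3) in *Casp1*/*Fadd*-null D387A and 1.07 (0.260) in *Casp1*-null C362A intestines, which overlapped each other. The latter also overlapped *Casp1*-null D387A and the D387A set controls, and the former no other group. Between 0.672 (0.0708) in C362A and 0.193 (0.0937) in *Cflar*-null D387A, every group overlapped its neighbour in the order. That run held the D387A set controls at 0.624 (0.287), *Casp1*-null D387A at 0.599 (0.316), *Casp8* 1xDA/1xDA at 0.578 (0.165), *Casp1*/*Ifnar1*-null D387A at 0.563 (0.0852), the C362A set controls at 0.519 (0.0191) and *Cflar*-null C362A at 0.348 (0.161).

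**Figure D2:**
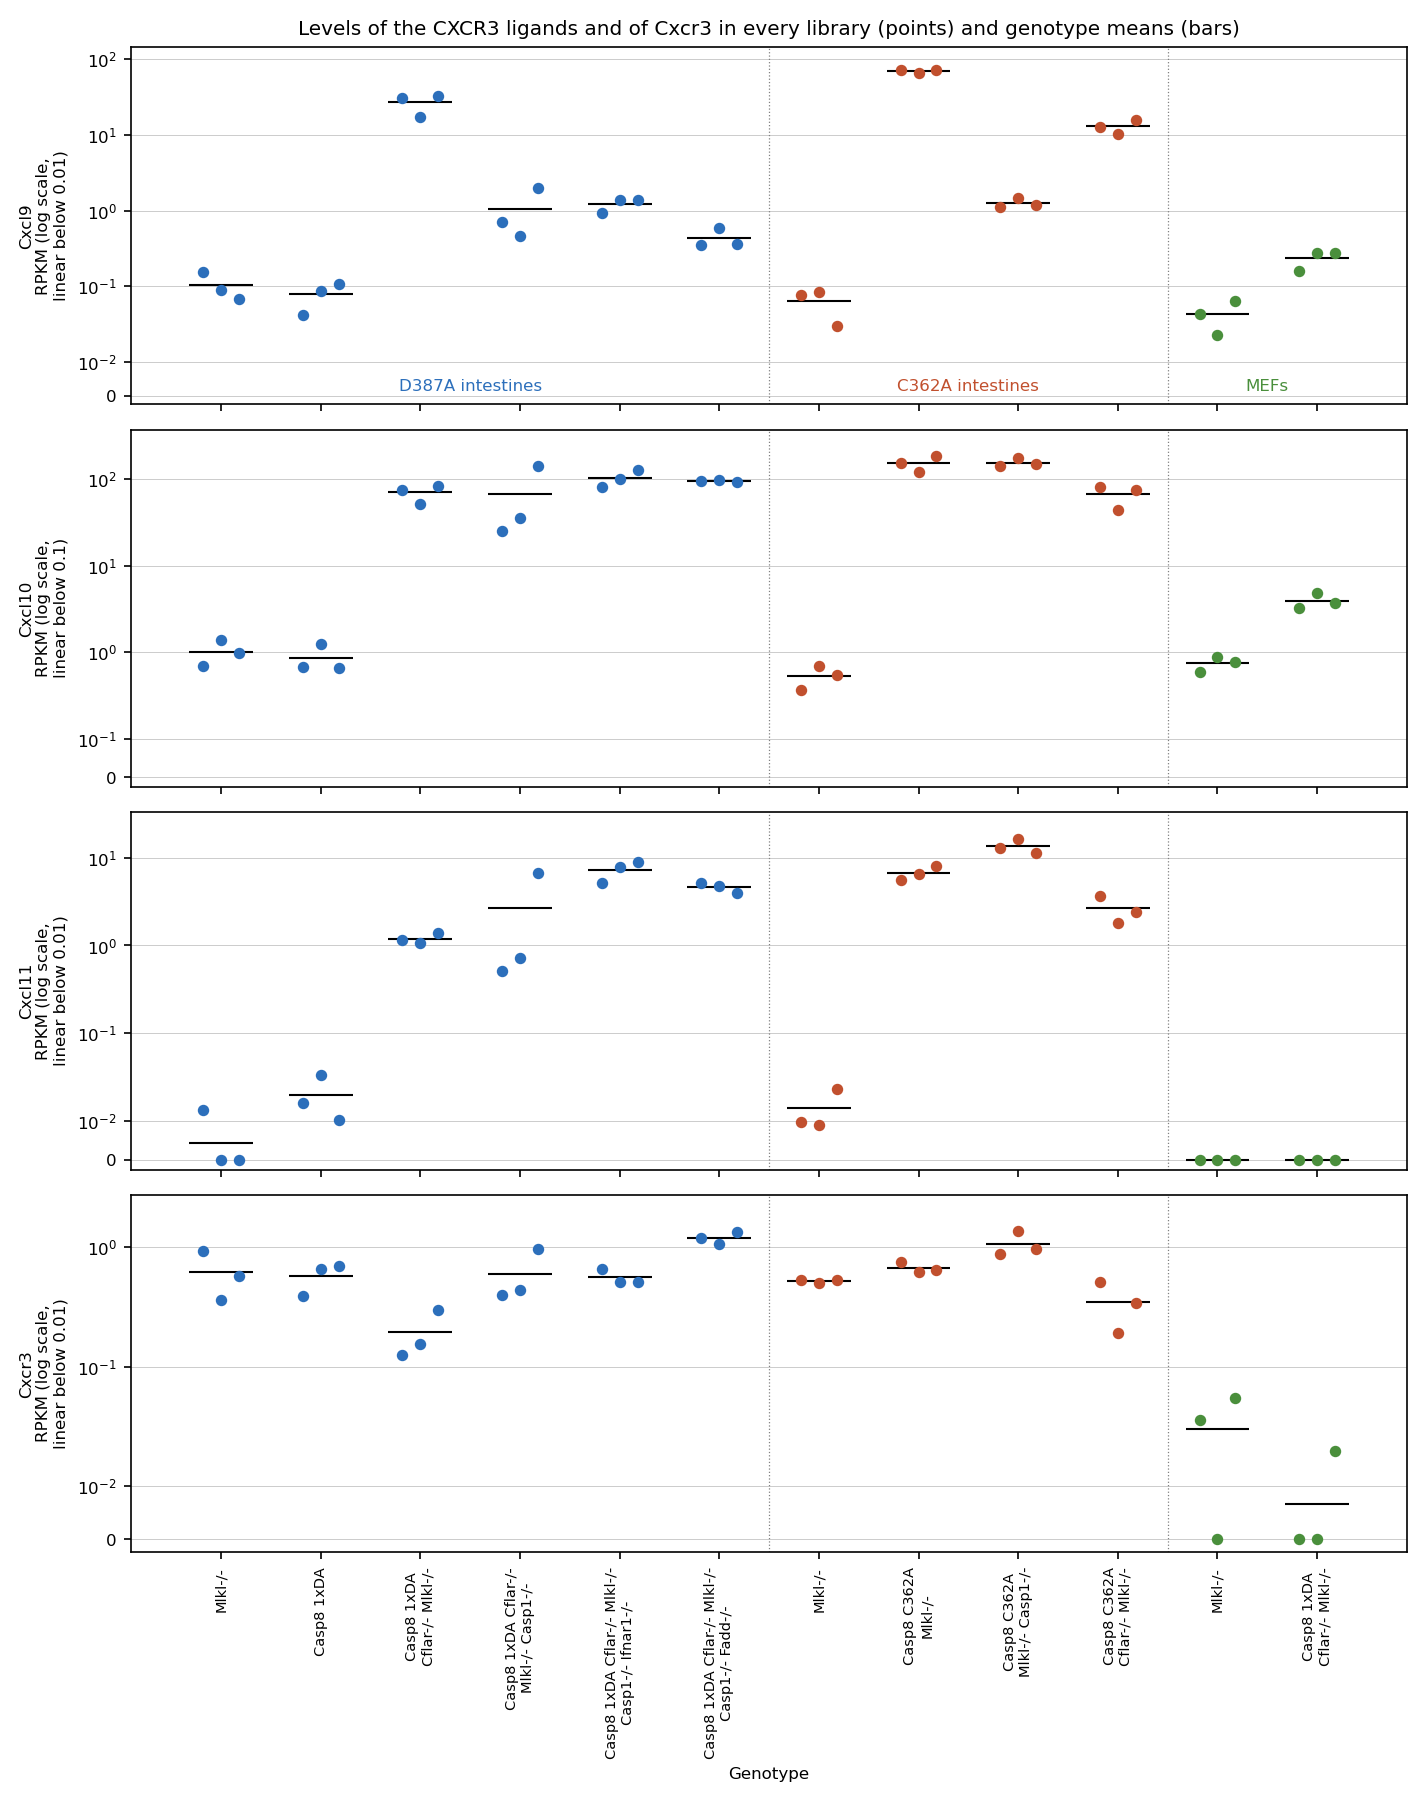
Levels of *Cxcl9*, *Cxcl10*, *Cxcl11* and *Cxcr3* in RPKM, on an axis that is linear near 0 and logarithmic above, for the 12 groups. Points are libraries and bars are the means of 3. *Cxcl9* is low in every group without *Casp1*, at 0.437 to 1.26 RPKM on average, while *Cxcl10* is not.

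The comparison of *Cflar*-null D387A with *Mlkl*-/- intestines asks what changes once the D387A allele is combined with loss of cFLIP. All ligands rose and the receptor transcript fell, so that 3 of the 4 genes were called higher, against 9.40% of the 18360 genes tested, and 1 was called lower, against 12.8%. *Cxcl9* rose 250-fold, with a log2 fold change of 7.97 (SE 0.508, adjusted p = 6.96e-10 by edgeR, with the Benjamini-Hochberg adjustment throughout). *Cxcl10* rose 69.5-fold, with a log2 fold change of 6.12 (SE 0.594, edgeR adjusted p = 1.22e-07). *Cxcl11* had 323 reads in the mutants against 1 in the controls, a ratio of CPM of 269 with a 95% counting interval of 48.0 to 10677, and was called by edgeR (adjusted p = 0.000336). Its fitted log2 fold change was 7.66, and 9.69 without the first control embryo, which held the single read. *Cxcr3* fell by 1.66 on the log2 scale (SE 0.438, edgeR adjusted p = 0.00338). Every mutant embryo lay on the same side of every control for each of these genes.

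The *Casp8* 1xDA/1xDA embryos showed no such induction. None of the 4 genes was called in either direction by edgeR, limma or DESeq2, and none had an unadjusted p under 0.05. The background was just as small, with 0% of genes called higher and 0.00545% called lower. The single gene called by edgeR was *Olfm2*, an olfactomedin family gene named here after its values were seen. At an unadjusted p under 0.05 there were 921 genes, and limma called 1 gene and DESeq2 3. The log2 fold changes were -0.34 for *Cxcl9*, -0.20 for *Cxcl10* and -0.08 for *Cxcr3*, and those signs rest on single embryos. *Cxcl9* was at 0.06 without the first control and *Cxcl10* at 0.07 without the second control, and *Cxcr3* was at 0.32 without the first control and at 0.10 without the first *Casp8* 1xDA/1xDA embryo. *Cxcl11* had 5 reads against 1, a ratio of 4.46 with a 95% counting interval of 0.499 to 211.

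C362A intestines had the strongest induction of *Cxcl9* in the series. Against their *Mlkl*-/- controls 3 of the 4 genes, the ligands, were called higher, with 10.4% of the 19408 genes tested called higher and 7.55% lower. *Cxcl9* rose 1040-fold (log2 fold change 10.02, SE 0.249, edgeR adjusted p = 1.20e-11), *Cxcl10* 286-fold (8.16, SE 0.318, adjusted p = 4.14e-10) and *Cxcl11* 461-fold (8.85, SE 0.429, adjusted p = 1.83e-09). *Cxcr3* was at a log2 fold change of 0.37 and was not called.

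*Cflar*-null C362A intestines had the same ligands up, at lower levels. Again 3 of the 4 genes were called higher, against 13.4% of all genes higher and 11.2% lower, with log2 fold changes of 7.59 for *Cxcl9*, 6.96 for *Cxcl10* and 7.50 for *Cxcl11* (edgeR adjusted p of 1.49e-10, 1.43e-09 and 1.18e-08). Set directly against C362A, whose embryos keep *Cflar*, all 3 ligands fell, so 3 of the 4 genes were called lower, against 4.62% of genes lower and 1.45% higher. *Cxcl9* fell 5.41-fold (log2 fold change -2.44, SE 0.149, edgeR adjusted p = 2.98e-06), *Cxcl10* 2.30-fold (-1.20, SE 0.215, adjusted p = 0.00174) and *Cxcl11* 2.55-fold (-1.35, SE 0.227, adjusted p = 0.00118). Without the second *Cflar*-null C362A embryo *Cxcl10* was at -0.98 (edgeR adjusted p = 0.00632), just short of the fold threshold. *Cxcr3* was at -0.96 and was called, at -1.33, without the first *Cflar*-null C362A embryo. Comparisons of one set share control or mutant embryos, and so their values are not independent of each other.

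Loss of *Casp1* separated *Cxcl9* from the other ligands. In the D387A background *Cxcl9* fell 25.8-fold, with a log2 fold change of -4.69 (SE 0.382, edgeR adjusted p = 4.07e-08), all 3 *Casp1*-null embryos lying below all 3 with *Casp1*. *Cxcl10* was at -0.07 (SE 0.417) and *Cxcl11* at 1.15 (SE 0.611), neither of them called, with edgeR adjusted p of 0.907 and 0.134. *Cxcr3* rose by 1.59 (SE 0.436, edgeR adjusted p = 0.00628), back to the level of the controls. Thus 1 of the 4 genes was called higher, against 8.88% of all genes, and 1 lower, against 4.51%.

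These values depend on single embryos in part. Without the third *Casp1*-null D387A embryo, *Cxcl9* fell 45.8-fold (log2 fold change -5.52, edgeR adjusted p = 2.17e-10) and *Cxcl10* fell too, 2.32-fold (-1.21, edgeR adjusted p = 0.000130). *Cxcl11* then turned to -0.96 (edgeR adjusted p = 0.00445, short of the fold threshold) and *Cxcr3* was still called at 1.08. *Cxcl11* was instead called higher without the first (1.64) or second (1.60) embryo of that group. *Cxcl10* turned to 0.32 and 0.24 without those same embryos and to 0.08 without the third *Cflar*-null D387A embryo. The fall of *Cxcl9* was called whichever of the 6 embryos was left out, at -5.52 to -4.33.

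In the C362A background loss of *Casp1* again lowered *Cxcl9* and left *Cxcl10* uncalled, while the calls of *Cxcl11* and *Cxcr3* differed from those in the D387A background. *Cxcl9* fell 55.5-fold (log2 fold change -5.79, SE 0.181, edgeR adjusted p = 1.48e-10), *Cxcl10* was at 0.01 (SE 0.212, adjusted p = 0.964), and *Cxcl11* rose 2.01-fold (1.01, SE 0.220, adjusted p = 0.00296). Thus 1 of the 4 genes was called lower, against 5.72% of all genes, and 1 higher, against 5.60%. *Cxcl10* changed sign without the second C362A embryo (-0.13) or the second *Casp1*-null C362A embryo (-0.09). The rise of *Cxcl11* lies at the fold threshold and its call was lost without the first (0.89) or second (0.99) C362A embryo or the second *Casp1*-null C362A embryo (0.83). *Cxcr3* was at 0.67 and not called.

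Set against *Mlkl*-/- controls, *Casp1*-null C362A intestines had all 4 genes called higher, against 6.79% of genes higher and 3.73% lower. The log2 fold changes were 4.23 for *Cxcl9*, 8.18 for *Cxcl10*, 9.86 for *Cxcl11* and 1.04 for *Cxcr3*, with edgeR adjusted p of 7.78e-08, 3.80e-10, 7.63e-10 and 0.0152. The call of *Cxcr3* was lost without the second control (1.00) or the second *Casp1*-null C362A embryo (0.81).

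In *Casp1*-null D387A intestines the ligands also remained above the controls, so 3 of the 4 genes were called higher, against 2.16% of genes higher and 2.18% lower. *Cxcl9* was 9.71-fold higher (log2 fold change 3.28, edgeR adjusted p = 0.00103) and *Cxcl10* 66.2-fold (6.05, edgeR adjusted p = 6.41e-06). *Cxcl11* had 644 reads against 1, a ratio of 581 with a 95% counting interval of 104 to 22993 (edgeR adjusted p = 0.000369). *Cxcr3* was at -0.07, and at 0.33 without the first control, 0.16 without the first and 0.11 without the second *Casp1*-null embryo. Without the third *Casp1*-null embryo *Cxcl9* was at 2.45, *Cxcl10* at 4.91 and *Cxcl11* at 6.70, all called, and *Cxcr3* at -0.58.

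The effect of *Casp1* loss was compared between the alleles by an interaction term. For *Cxcl9* the fall in the D387A background was smaller than in the C362A background by 1.12 on the log2 scale (SE 0.416), which edgeR did not call (adjusted p = 0.0622). No interaction was called for any of the 4 genes by edgeR or limma, against 5.73% of 19643 genes called in either direction. At an unadjusted p under 0.05 it was 1 of the 4, and 6390 of all genes. For *Cxcl10* the difference was -0.07 (edgeR adjusted p = 0.946), for *Cxcl11* 0.16 (0.902) and for *Cxcr3* 0.95 (0.211). Without the third *Casp1*-null D387A embryo the difference was 0.30 for *Cxcl9*, and was called for *Cxcl10* at -1.20 (edgeR adjusted p = 0.00917) and *Cxcl11* at -1.93 (0.000569). The *Cxcl9* term was called without the first (1.34) or second (1.48) embryo of that group or the third *Cflar*-null D387A embryo (1.29). The *Cxcl10* term was above 0 without any of those same embryos (0.33, 0.24 and 0.08) or without the second C362A (0.07) or second *Casp1*-null C362A embryo (0.03).

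After loss of *Ifnar1* on top of *Casp1*, *Cxcl10* and *Cxcl11* stayed high and *Cxcl9* stayed low. Against *Casp1*-null D387A intestines edgeR called none of the 4 genes, with 3.28% of all genes called higher and 2.03% lower. Of the 4, 1 was higher at an unadjusted p under 0.05, against 7653 of the 18360 genes in either direction, limma called 1 higher and DESeq2 none, and no tool called any lower. The log2 fold changes were 0.23 (SE 0.390) for *Cxcl9*, 0.62 (SE 0.418) for *Cxcl10*, 1.45 (SE 0.576) for *Cxcl11* and -0.08 for *Cxcr3*, with edgeR adjusted p of 0.689, 0.279, 0.0648 and 0.889.

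Without the third *Casp1*-null D387A embryo the picture differed. *Cxcl9* was then called higher by 2.09-fold (log2 fold change 1.06, edgeR adjusted p = 0.0164), *Cxcl10* by 3.38-fold (1.76, adjusted p = 6.34e-06) and *Cxcl11* by 11.7-fold (3.55, adjusted p = 1.21e-08), while *Cxcr3* was at 0.43 and not called. The genes called over the whole transcriptome went from 975 to 1740, and to 629 and 582 without the first or second embryo of that group. Without the second, *Cxcl9* was at -0.13.

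Against *Mlkl*-/- controls, the *Casp1*/*Ifnar1*-null D387A intestines had 3 of the 4 genes called higher, against 6.76% of genes higher and 5.64% lower. *Cxcl9* was 11.4-fold higher (log2 fold change 3.51, edgeR adjusted p = 9.79e-05) and *Cxcl10* 101-fold (6.66, adjusted p = 3.85e-07). *Cxcl11* had 1990 reads against 1, a ratio of 1630 with a 95% counting interval of 292 to 64426. *Cxcr3* was at -0.15, and at 0.24 without the first control. Induction of all ligand transcripts was thus present in embryos labelled as lacking the type I interferon receptor gene.

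Loss of *Fadd* on top of *Casp1* left *Cxcl10* and *Cxcl11* high and *Cxcl9* low. Against *Casp1*-null D387A intestines edgeR called none of the 4 genes in either direction, with 2.56% of genes called higher and 0.877% lower. At an unadjusted p under 0.05, 1 of the 4 was higher and 1 lower, and 5796 of the 18360 genes were higher or lower. Limma called 2 higher and DESeq2 1, and neither called any lower. *Cxcl9* was at a log2 fold change of -1.25 (SE 0.444, edgeR adjusted p = 0.0602), *Cxcl10* at 0.50 (SE 0.418, 0.443), *Cxcl11* at 0.79 (SE 0.576, 0.376) and *Cxcr3* at 1.01 (SE 0.350, 0.0551).

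Here too the third *Casp1*-null D387A embryo decided calls. Without it *Cxcl10* was called higher by 3.13-fold (1.65, edgeR adjusted p = 2.14e-05), *Cxcl11* by 7.43-fold (2.89, 1.54e-07) and *Cxcr3* by 2.87-fold (1.52, 0.00525), and *Cxcl9* was at -0.42 (adjusted p = 0.456). *Cxcl9* was called lower, at -1.61, without the second embryo of that group. With a replicate left out the genes called over the whole transcriptome numbered 476 to 907.

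Against *Mlkl*-/- controls, *Casp1*/*Fadd*-null D387A intestines had 3 of the 4 genes called higher, against 2.81% of genes higher and 0.975% lower. *Cxcl10* was 93.8-fold higher (log2 fold change 6.55, edgeR adjusted p = 2.86e-06), and *Cxcl11* had 1191 reads against 1, a ratio of 1030 with a 95% counting interval of 184 to 40699. *Cxcl9* was 4.07-fold higher (2.03, SE 0.665, edgeR adjusted p = 0.0424), a call that was lost when any of the 6 embryos was left out, at 1.74 to 2.42. *Cxcr3* was at 0.94 (adjusted p = 0.0741) and was called, at 1.34, without the first control.

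The balance between ligands was tested directly as the log2 ratio of their reads in each embryo, with 0.5 reads added to each count. In 15 two-sided exact permutation tests, 3 embryos against 3 cannot give a p below 0.1, so only the tests that permuted within both sets together could reach the threshold. Each ratio is of reads and not of molecules, since the genes differ in width.

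*Cxcl9* made up a large share of the ligand reads only where *Casp1* was intact. The ratio of *Cxcl9* to *Cxcl10* was 0.776, 0.626 and 0.734 in *Cflar*-null D387A embryos and 0.0534, 0.0252 and 0.0266 in *Casp1*-null D387A embryos. It was 0.881, 1.01 and 0.729 in C362A and 0.0152, 0.0158 and 0.0148 in *Casp1*-null C362A embryos. These mutants with and without *Casp1* did not overlap in either set, and the third *Casp1*-null D387A embryo, apart in its levels, lay next to the second in this ratio.

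Loss of *Casp1* lowered the ratio of *Cxcl9* to *Cxcl10* by 21.5-fold in the D387A background (log2 difference -4.43, exact permutation p = 0.1, the smallest possible) and by 56.7-fold in the C362A background (-5.82, exact permutation p = 0.1). Over both sets, permuted within each, the difference was -5.13 or 34.9-fold (exact permutation p = 0.00500, the smallest this design can give, adjusted 0.0375). For *Cxcl9* to *Cxcl11* it was 33.8-fold (-5.08), 112-fold (-6.80) and, over both sets, 61.4-fold (-5.94, exact permutation p = 0.00500, adjusted 0.0375). *Cxcl10* to *Cxcl11* moved less, by 1.57-fold (-0.65, exact permutation p = 0.3), 1.97-fold (-0.98) and, over both sets, 1.76-fold (-0.82, exact permutation p = 0.0150, adjusted 0.0750). The D387A value of this last ratio came mostly from the third *Casp1*-null embryo, at 8.37 against 19.6 and 19.7, with 26.1, 19.5 and 24.6 in *Cflar*-null D387A. Without that embryo the difference was -0.24, or -0.61 over both sets, and for *Cxcl9* to *Cxcl11* -4.51.

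Further loss of *Ifnar1* took the *Cxcl9* to *Cxcl10* ratio to 0.0218, 0.0261 and 0.0204, a difference of -0.54 from *Casp1*-null D387A (exact permutation p = 0.200, adjusted 0.214). Further loss of *Fadd* took it to 0.00715, 0.0115 and 0.00763, all below all *Casp1*-null D387A embryos, a difference of -1.95 or 3.85-fold (exact permutation p = 0.1). *Cxcl9* to *Cxcl11* differed by -1.91 after loss of *Ifnar1* and by -2.76 after loss of *Fadd* (exact permutation p = 0.1 each). *Cxcl10* to *Cxcl11* differed by -1.36 and -0.82 (exact permutation p = 0.1 and 0.200). These became, without the third *Casp1*-null embryo, -2.47 and -3.33 for *Cxcl9* to *Cxcl11* and -1.77 and -1.23 for *Cxcl10* to *Cxcl11*. In *Cflar*-null C362A embryos the *Cxcl9* to *Cxcl10* ratio was 0.295, 0.442 and 0.391, between the C362A groups with and without *Casp1*.

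**Figure D3:**
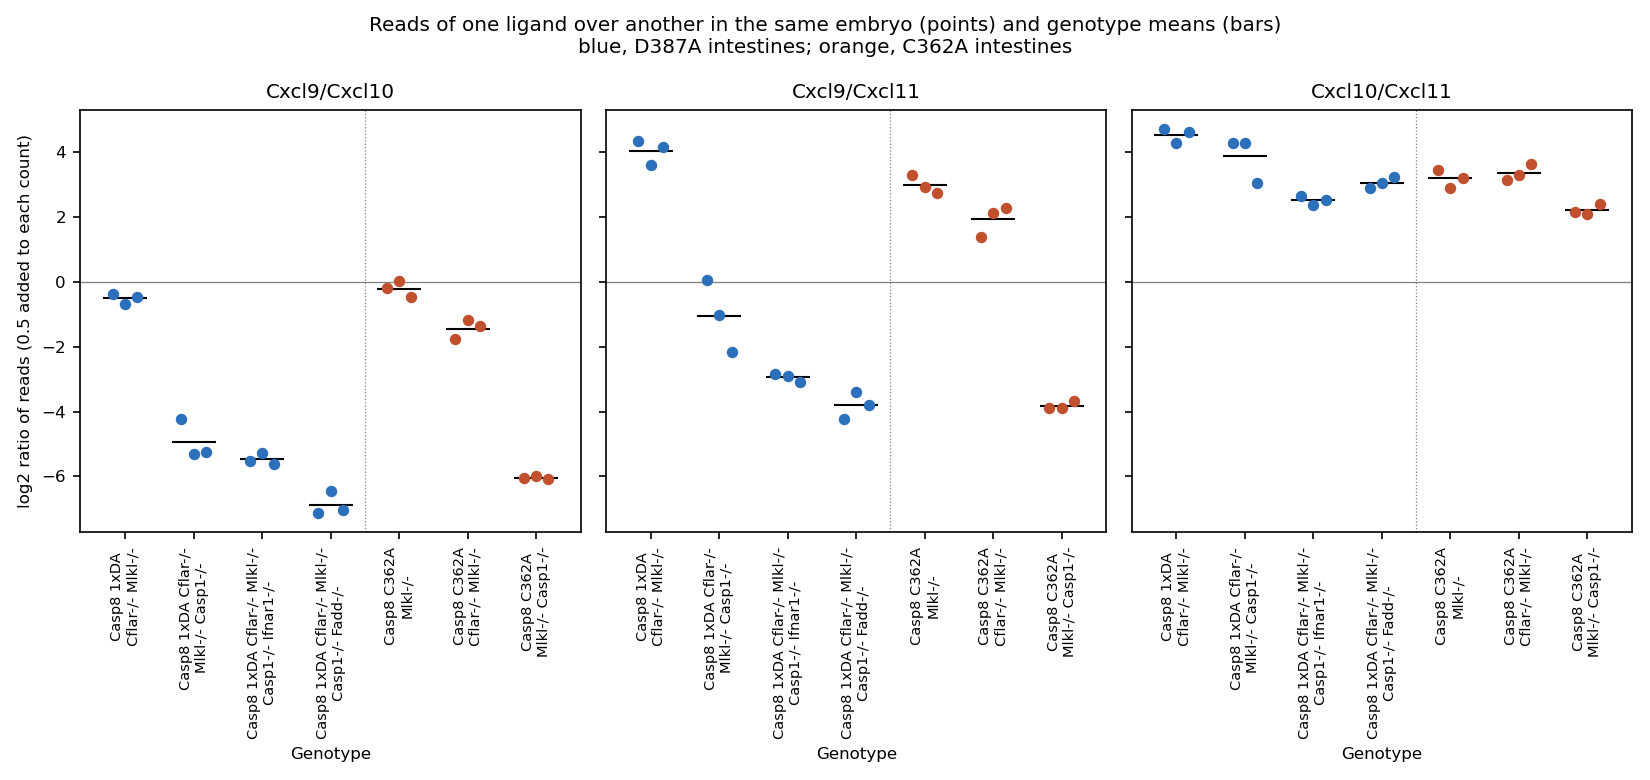
Log2 ratios of reads of *Cxcl9* to *Cxcl10*, *Cxcl9* to *Cxcl11* and *Cxcl10* to *Cxcl11* in each embryo of 7 genotypes (points), with D387A intestines in blue and C362A intestines in orange. The ratios that hold *Cxcl9* lie lower in every embryo without *Casp1*, while *Cxcl10* to *Cxcl11* moves less.

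MEFs of the *Cflar*-null D387A genotype had a far smaller rise. *Cxcl10* had 29, 41 and 25 reads in *Mlkl*-/- MEFs and 110, 158 and 165 in the mutants, which did not overlap. *Cxcl9* had 4, 2 and 4 reads against 10, 17 and 23, also without overlap. Of the 2 genes with enough reads to be tested, *Cxcl10* was called higher, against 0.0711% of 15465 genes, at 5.30-fold (log2 fold change 2.41, SE 0.241, edgeR adjusted p = 0.0108). *Cxcl9* was at 2.46 (SE 0.504, adjusted p = 0.217) and was not called. No gene of the transcriptome was called lower by edgeR (0%) or limma, and DESeq2 called 3, while 1001 genes had an unadjusted p under 0.05 in either direction.

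Few genes were called in the MEFs at all, 11 by edgeR, 10 by limma and 36 by DESeq2, and 19 by edgeR with the replicate number as a block. The call of *Cxcl10* was lost without the first (2.25) or second (2.56) *Mlkl*-/- library or the second (2.23) or the third (2.45) mutant library. With those left out 6, 2, 3 and 5 genes were called in all. The interaction of genotype with source was called for 2 of the 3 genes that could be fitted, against 15.3% of 18862 genes called in either direction. The rise in intestines exceeded that in MEFs by 5.51 on the log2 scale for *Cxcl9* (SE 1.29, edgeR adjusted p = 0.00168) and by 3.74 for *Cxcl10* (SE 0.889, adjusted p = 0.00197). For *Cxcr3* it was -0.15, and above 0 without the first intestinal control (0.25), the first *Cflar*-null D387A embryo (0.08), the second *Mlkl*-/- MEF library (0.45) or the third mutant MEF library (1.74).

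Interferons, the inducers of these ligands, were at the limit of detection in most libraries. *Ifng*, which encodes interferon gamma and is singled out here after its values were seen, had 29, 30 and 35 reads in C362A embryos and 4 or fewer in every other library. It had 3, 2 and 4 reads in *Cflar*-null D387A and 1, 1 and 1 in *Casp1*-null C362A embryos. *Ifnb1*, the interferon beta gene, also chosen after its values were seen, had 37, 58 and 44 reads in *Casp1*-null C362A, 12, 26 and 11 in *Casp1*/*Fadd*-null D387A, 4, 8 and 5 in C362A and 4, 2 and 8 in *Casp1*/*Ifnar1*-null D387A embryos, and 2 or fewer elsewhere. The interferon lambda genes *Ifnl2* and *Ifnl3*, likewise chosen after their values were seen, were highest in the same group, with 20, 22 and 22 reads of *Ifnl2* and 19, 24 and 21 of *Ifnl3* in *Casp1*-null C362A embryos. *Casp1*/*Fadd*-null D387A embryos had 16, 10 and 6 reads of *Ifnl2* and 9, 18 and 8 of *Ifnl3*, with 7 or fewer of either in every other library. *Ifng* was thus highest in the group with the most *Cxcl9*, and *Ifnb1*, *Ifnl2* and *Ifnl3* in the group with the most *Cxcl11*, which also had the highest mean of *Cxcl10*. Other groups did not follow this pairing. *Cflar*-null D387A and *Cflar*-null C362A intestines had *Cxcl9* at 27.0 and 12.9 RPKM with 4 or fewer reads of *Ifng*. *Cflar*-null C362A intestines had *Cxcl11* at 2.64 RPKM with 0 reads of *Ifnb1*. Whether these interferons bear on the ligands was not tested.

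*Ifng* and its signalling genes were followed as a list of 10. In C362A intestines 6 of 10 rose against controls (median log2 fold change 1.59, against 0.02 over all genes), with 10.4% of all genes called higher. In *Cflar*-null D387A intestines 2 of 9 tested rose (median 0.40, against -0.01), with 9.40% of all genes called higher. *Irf1*, a transcription factor induced by interferon gamma, was at 1.68 in C362A and 0.66 in *Cflar*-null D387A intestines, the latter short of the fold threshold. *Ifngr1* and *Ifngr2*, the receptor subunits, were called in neither comparison, at 0.71 and -0.28 in C362A. With *Casp1* lost in the C362A background 2 of 10 fell (median -0.15, against -0.02), with 5.72% of all genes called lower, while *Irf1* and *Irf8* were at -0.15 and 0.06. *Cflar* loss lowered 3 of the 10 (median -0.78, against -0.02), with 4.62% of all genes called lower.

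Targets of interferon gamma rose widely. Of 14 genes, which encode GTPases, immunoproteasome subunits and antigen processing factors, 14 rose in *Cflar*-null D387A (median 2.55, against -0.01 over all genes) and 14 in C362A intestines (4.85, against 0.02). The most abundant were *Irgm1* and *Igtp*, interferon-inducible GTPases, and *Psmb8*, an immunoproteasome subunit. *Irgm1* was at 2.59 and 4.83, *Igtp* at 2.40 and 5.24, and *Psmb8* at 2.22 and 3.84 in the respective comparisons. In *Casp1*-null, *Casp1*/*Ifnar1*-null and *Casp1*/*Fadd*-null D387A intestines 13 of 14 were above controls in each case, with medians of 2.15, 3.11 and 3.80 (all genes 0.02, 0.00 and -0.02), and without the third embryo the *Casp1*-null group had 7 (median 1.10). In *Cflar*-null C362A 14 rose (3.57, against 0.03) and in *Casp1*-null C362A 13 (4.56, against 0.00).

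With *Casp1* lost, some of these targets fell and others did not. In the D387A background 4 of 14 fell (median -0.58, against 0.03 over all genes), with 4.51% of all genes called lower. Without the third embryo 9 fell (median -1.57). In the C362A background 2 of 14 fell, with a median of 0.24 against -0.02 and 5.72% of all genes called lower. *Gbp2*, a guanylate-binding GTPase, and *Ido1*, which degrades tryptophan, were singled out after their values were seen because they fell with *Cxcl9*. Log2 fold changes were -2.70 and -2.97 for *Gbp2* and -7.46 and -11.55 for *Ido1* in the D387A and C362A backgrounds, whereas *Irgm1* was at 0.10 and 0.52, the former turning to -0.86 without the third embryo (not called).

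*Ifnar1* loss raised 7 of the 14 targets (median 1.10, against 0.00 over all genes; 13 and 2.10 without the third *Casp1*-null embryo), calls that were all lost without the first (median 0.74) or second (0.78) embryo of that group, and *Fadd* loss raised 11 (1.67, against -0.03; 12 and 2.64 without the third). *Cflar* loss in the C362A background lowered 12 of 14 (median -1.26, against -0.02). In MEFs edgeR, limma and DESeq2 called none of 13 targets, with 1 higher and 1 lower at an unadjusted p under 0.05 (median -0.22, against 0.00).

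Antiviral interferon-stimulated genes rose in the intestines where the ligands rose. Of 14 such genes 12 rose in *Cflar*-null D387A intestines (median 2.35, against -0.01) and 14 in C362A (5.83, against 0.02). Loss of *Casp1* raised 7 in the D387A background (median 1.23, against 0.03), but without the third embryo it raised 1 and lowered 4 (median 0.07). In the C362A background it raised 8 (1.03, against -0.02). *Isg15*, a ubiquitin-like modifier, was at 0.98 and 1.12 and *Ifit3*, an RNA-binding antiviral factor, at 2.02 and 1.40 after *Casp1* loss in the respective backgrounds, all called but the 0.98. Without the first *Casp1*-null D387A embryo the 0.98 became 1.42 and was called, and without the third *Isg15* was at -0.68 and *Ifit3* at 0.99, neither called. Against controls, 14 of 14 were higher in *Casp1*-null D387A (3.47, against 0.02; 13 and 2.34 without the third embryo), *Casp1*/*Ifnar1*-null D387A (4.76, against 0.00), *Casp1*/*Fadd*-null D387A (5.38, against -0.02), *Cflar*-null C362A (4.80, against 0.03) and *Casp1*-null C362A intestines (6.70, against 0.00).

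*Ifnar1* loss raised 3 of these antiviral genes (median 1.30, against 0.00) and 14 without the third *Casp1*-null embryo (2.58), but all calls were lost without the first (0.85) or second (0.93). *Fadd* loss raised 13 (1.86, against -0.03) and 14 without the third *Casp1*-null embryo (3.32), 10 without the first and 7 without the second (1.67). *Cflar* loss in the C362A background lowered 9 (-1.11, against -0.02). In MEFs none of 12 was called by edgeR, limma or DESeq2 or had an unadjusted p under 0.05 (median -0.36, against 0.00).

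Calls among type I and III interferons with their receptors and factors were few in the D387A set. Of 9 tested in the D387A set 1 rose and 2 fell in *Cflar*-null D387A (median -0.13, against -0.01), where 9.40% of all genes were called higher and 12.8% lower. After *Casp1* loss 2 rose (0.57, against 0.03), with 8.88% of all genes higher. After *Ifnar1* loss 1 rose and 1 fell (-0.01, against 0.00), with 3.28% of all genes higher and 2.03% lower. The gene that fell was *Ifnar1* itself. After *Fadd* loss 1 rose (0.37, against -0.03), with 2.56% of all genes higher. With *Casp1*-null D387A embryos left out in turn, 10 were tested. After *Casp1* loss 1 rose without the second (0.64). After *Ifnar1* loss the rise was lost without the first or second, and 2 rose without the third (0.13). After *Fadd* loss 2 rose without the first (0.40) or second (0.54) and 4 without the third (0.40). Of 12 in the C362A set 6 rose in C362A (median 1.00, or 0.68 with genes at 0 in a group set at their bound, against 0.02), with 10.4% of all genes higher. After *Casp1* loss 3 rose (0.53, against -0.02), with 5.60% of all genes higher. After *Cflar* loss 3 fell (-0.53, against -0.02), with 4.62% of all genes lower. *Irf7*, a factor that drives interferon transcription, was at 1.32 in *Cflar*-null D387A and 3.79 in C362A, both called.

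NF-κB genes were induced in the same intestines. Of 12, 10 rose in *Cflar*-null D387A (median 1.99, against -0.01) and 10 in C362A (1.88, against 0.02), among them *Nfkbia*, the inhibitor induced by NF-κB itself, at 2.73 and 2.18, and the adhesion molecule *Icam1* at 2.49 and 2.52. After *Casp1* loss 1 of 12 was called lower in each background (medians -0.55 and -0.41, against 0.03 and -0.02), with 4.51% and 5.72% of all genes lower. In the D387A background 6 fell without the third embryo (-0.92), while the call was lost without the first (-0.43) or second (-0.42). After *Ifnar1* loss 1 was called higher (0.65, against 0.00), with 3.28% of all genes higher, and that call was lost without the first (0.46) or second (0.43) *Casp1*-null embryo. Without the third 8 were called higher (1.21). *Fadd* loss lowered 2, *Nfkbia* at -1.18 and *Icam1* at -1.08 (median of the list -0.65, against -0.03). It lowered 4 without the first (-0.83) or second (-0.85) *Casp1*-null embryo, and without the third these calls were lost, with *Nfkbia* at -0.61, *Icam1* at -0.57 and the list at -0.20. In MEFs 3 of 12 rose (0.61, against 0.00), including *Nfkbia* at 1.12, with 0.0711% of all genes called higher. Without the second *Mlkl*-/- MEF library only 2 genes were called in all, so not all 3 of these calls held.

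Other CXC chemokines also rose, 6 of 10 tested in *Cflar*-null D387A, where 2 fell (median 2.66, against -0.01), and 6 of 10 in C362A (1.77, against 0.02). *Cxcl16*, a ligand of CXCR6, was at 2.15 and 2.25 in these comparisons. *Casp1* loss lowered 3 in the D387A background and 5 in the C362A background (medians -0.09 and -0.81, against 0.03 and -0.02), but *Cxcl16* was at -0.44 and 0.05 and not called. Without the third *Casp1*-null D387A embryo 1 rose and 5 fell in that background (-0.88), *Cxcl16* among the latter at -1.16. *Cxcl13*, which attracts B cells, fell in the C362A background, at -1.23. *Ifnar1* loss raised 3 (0.57, against 0.00) and *Fadd* loss lowered 3 (-0.72, against -0.03), which without that embryo became 5 raised and 1 lowered (1.15) and 2 lowered (-0.73).

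Of 5 other chemokine receptor genes tested in the D387A set 2 rose and 1 fell in *Cflar*-null D387A intestines (median -0.37, against -0.01), and in C362A 3 rose (1.14, against 0.02). Of all genes, 9.40% were called higher and 12.8% lower in *Cflar*-null D387A, and 10.4% higher in C362A. *Cxcr2*, the receptor through which neutrophils respond to other CXC chemokines, was at 4.07 and 5.95 and fell after *Casp1* loss, at -3.18 and -5.33. *Cx3cr1*, found on macrophages and monocytes, rose after *Casp1* loss in the D387A background, at 1.34. *Cxcr2* thus fell with *Cxcl9* after *Casp1* loss, and *Cxcr3*, the receptor of the ligands, did not.

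By their median, genes that act on the CXCR3 system moved far less than the ligands. Of 5, *Dpp4*, which encodes the peptidase that trims and inactivates these ligands, fell in *Cflar*-null D387A (-1.21, edgeR adjusted p = 7.89e-08) and rose after *Casp1* loss in that background (1.07, edgeR adjusted p = 8.06e-07), the direction opposite to *Cxcl9* in both. Of all genes, 12.8% were called lower in the former and 8.88% higher in the latter. The sums of epithelial markers also fell in *Cflar*-null D387A and were higher after *Casp1* loss. Whether the amount of epithelium bears on *Dpp4* was not tested. In C362A intestines *Dpp4* was at -0.32 and not called. *Gnai2*, the G protein subunit through which CXCR3 signals, was at 0.17 and 0.04 in *Cflar*-null D387A and C362A. Without the third *Casp1*-null D387A embryo 1 gene of the list, *Ackr1*, named after its values were seen, also fell after *Casp1* loss, at -1.09. The median of the list was 0.30 and 0.04 in these comparisons, against -0.01 and 0.02 over all genes.

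Against controls, the neighbours *Naaa*, *Sdad1*, *Art3*, *Nup54* and *Scarb2* moved far less than the ligands in *Cflar*-null D387A and C362A intestines. None of the 5 was called by edgeR, limma or DESeq2 in *Cflar*-null D387A intestines, where 4 were higher and 1 lower at an unadjusted p under 0.05 (11609 of 18360 genes in either direction), nor in C362A, where 4 were higher (9596 of 19408). *Art3* was at 0.76 and 0.66 and was at -0.63 and 0.03 after *Casp1* loss in the D387A and C362A backgrounds.

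Markers of NK cells and neutrophils fell with *Cxcl9* after *Casp1* loss. The 10 NK and cytotoxic cell markers, led by *Gzma*, a granzyme, summed to 7.40, 5.30 and 6.05 RPKM in the D387A set controls, 29.7, 24.7 and 40.9 in *Cflar*-null D387A and 3.18, 3.74 and 5.13 in *Casp1*-null D387A embryos. Across the C362A set they summed to 6.02, 7.11 and 7.45 in controls, 62.7, 55.6 and 57.5 in C362A, 11.3, 11.2 and 11.5 in *Casp1*-null and 55.9, 54.6 and 37.9 in *Cflar*-null C362A embryos. Of the *Cflar*-null C362A sums 1 lay within the range of C362A and the others below it. *Prf1* or *Ncr1* was at 0 in some D387A set libraries, controls and *Casp1*-null groups included, and no marker was at 0 in the C362A set. Of those tested, 4 of 8 rose in *Cflar*-null D387A (median 1.21, against -0.01 over all genes) and 9 of 9 in C362A (2.87, against 0.02), while 5 of 8 and 6 of 9 fell after *Casp1* loss (-1.71 and -1.33, against 0.03 and -0.02). Their part in the result for *Cxcl9* was not tested.

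Neutrophil markers, 8 genes led by the calprotectin gene *S100a9* in these groups, also fell with *Casp1* loss. They summed to 4.85, 29.3 and 11.4 RPKM in the D387A set controls, 83.3, 64.2 and 239 in *Cflar*-null D387A and 12.5, 16.0 and 29.1 in *Casp1*-null D387A. In the C362A set the sums were 14.3, 16.7 and 44.6 in controls, 559, 673 and 693 in C362A, 482, 443 and 286 in *Cflar*-null C362A and 27.1, 32.5 and 23.5 in *Casp1*-null C362A embryos. The *Casp1*-null groups overlapped the controls and lay below the mutants with *Casp1* listed here. *Elane* or *Ly6g* was at 0 in most D387A set libraries, in the third C362A set control and in the third *Casp1*-null C362A embryo. Of 7 tested 6 rose and 1 fell in *Cflar*-null D387A (median 3.10, against -0.01) and 6 rose in C362A (4.58, against 0.02), and 5 and 6 of 7 fell after *Casp1* loss (-2.75 and -4.55, against 0.03 and -0.02). The part of these cells in the ligand levels was not tested.

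Macrophage and monocyte markers (10 genes, led by *Lyz2* or *Csf1r*, none at 0 in an intestine) had lower sums after *Casp1* loss in the C362A set. Their sums overlapped in the D387A set, without a test of the difference between sets. They summed to 99.1, 98.5 and 93.4 RPKM in D387A set controls, 135, 121 and 167 in *Cflar*-null D387A and 130, 119 and 189 in *Casp1*-null D387A, where both mutant groups overlap and lie above the controls. *Casp1*/*Ifnar1*-null D387A embryos lay above these, at 203, 261 and 243. In the C362A set they summed to 87.1, 98.4 and 108 in controls, 296, 314 and 285 in C362A, 195, 219 and 170 in *Cflar*-null C362A and 139, 147 and 141 in *Casp1*-null C362A, which do not overlap. After *Casp1* loss 1 rose and 3 fell of 10 in the D387A set (median -0.58, against 0.03; 1 and 5 without the third *Casp1*-null embryo, -1.01), and 7 of 10 fell in the C362A set (-1.65, against -0.02). After *Ifnar1* loss 1 of 10 rose (0.39, against 0.00), or 2 without that embryo (0.70). Of all genes, 8.88% were called higher and 4.51% lower after *Casp1* loss in the D387A set, and 5.72% lower in the C362A set. The share called higher after *Ifnar1* loss was 3.28%. In MEFs they summed to 47.3, 45.9 and 38.9 in *Mlkl*-/- and 109, 140 and 136 in mutant libraries, mostly from *Lyz2*, with *Ly6c2* or *Ccr2* at 0 in 5 of the 6, so the MEF rise of *Cxcl10* came with a rise of *Lyz2*. What these cells contributed was not tested.

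T cells, which carry CXCR3 when activated, had low marker levels, and the sums of these markers did not follow *Cxcr3*. The 10 markers, led by *Lck*, summed to 4.53, 4.14 and 4.77 RPKM in D387A set controls, 7.50, 8.32 and 8.46 in *Cflar*-null D387A and 5.19, 4.39 and 6.54 in *Casp1*-null D387A. In *Casp1*/*Fadd*-null D387A embryos, where *Cxcr3* was highest, the sums were 7.28, 7.33 and 5.28. The C362A set had sums of 4.34, 4.92 and 4.72 in controls and 9.82, 10.8 and 9.87 in C362A embryos. There *Casp1*-null C362A embryos had 8.03, 8.65 and 8.29, and *Cflar*-null C362A embryos 11.3, 13.0 and 10.1. *Cd3d*, *Cd3e* or *Cd8b1*, which define T cells, were at 0 in most D387A set libraries. Of 4 tested markers 1 rose in *Cflar*-null D387A intestines (median 0.59, against -0.01), where 9.40% of all genes were called higher. *Cd3g*, singled out here after its values were seen, was at 1.46 after *Fadd* loss and 0.59 after *Ifnar1* loss, neither called. Without the third *Casp1*-null D387A embryo *Cd3g* was at 2.86 and 1.99, both called. Averaged over all intestines, *Cd3g* was at 0.746 RPKM, but *Cd3d* was at 0.0878 and *Cd3e* at 0.0929. *Cd3g* also led the list in the first *Mlkl*-/- MEF library, at 0.817 RPKM, where *Cd3e* was at 0. Reads of *Cd3g* alone therefore do not show T cells. Whether T cell numbers bear on *Cxcr3* was not tested.

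Plasmacytoid dendritic cell markers had high sums in several groups with high *Cxcl10*, mostly through *Bst2*. The 5 summed to 91.9, 101 and 90.0 RPKM in D387A set controls, 398, 298 and 427 in *Cflar*-null D387A, 676, 777 and 896 in *Casp1*/*Ifnar1*-null and 1221, 1122 and 923 in *Casp1*/*Fadd*-null D387A embryos. In the C362A set the sums were 63.6, 79.7 and 79.4 in controls, 1037, 941 and 1033 in C362A, 486, 489 and 565 in *Cflar*-null C362A and 1654, 2036 and 1716 in *Casp1*-null C362A. No marker was at 0 in an intestine, and *Bst2* led in each. Of the 5, 1 rose and 1 fell in *Cflar*-null D387A (median -0.17, against -0.01) and 2 rose and 1 fell in C362A (0.20, against 0.02), so the list as a whole did not follow its sum. Of all genes, 9.40% were called higher and 12.8% lower in *Cflar*-null D387A, and 10.4% higher and 7.55% lower in C362A. The part of these cells in the ligand levels was not tested.

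Sums of epithelial markers and of markers of neighbouring organs also differed between groups. The epithelial markers summed to 3444, 3396 and 3127 RPKM in *Cflar*-null D387A, against 5674, 6305 and 6846 in *Casp1*-null and 10333, 10110 and 9264 in *Casp1*/*Fadd*-null D387A, with none at 0. In C362A they summed to 5782, 4886 and 5850, against 12057, 14426 and 14689 in *Casp1*-null C362A, so sums were higher after *Casp1* loss in both backgrounds and after *Fadd* loss. *Fabp2* fell by 5.87 on the log2 scale in *Cflar*-null D387A against controls and rose by 4.65 after *Casp1* loss. Of the 10 markers 1 rose and 1 fell in *Cflar*-null D387A against controls (median 0.02), where 9.40% of all genes were called higher and 12.8% lower. After *Casp1* loss in C362A 1 rose (0.27, against -0.02), with 5.60% of all genes higher. After *Fadd* loss 1 rose (0.20, against -0.03), with 2.56% of all genes higher, a call lost without the first *Casp1*-null D387A embryo (0.10). The 8 pancreatic acinar markers, led by *Ctrb1*, summed to 60.4, 140 and 91.7 RPKM in *Casp1*/*Ifnar1*-null D387A, against 2.55, 3.45 and 4.10 in *Casp1*-null D387A, where *Ptf1a* was at 0 in all 3, and 6 of 6 tested rose after *Ifnar1* loss (median 5.12, against 0.00). The 8 liver markers, led by *Afp* or *Hnf4a*, summed to 855, 1066 and 701 RPKM in D387A set controls and 164, 158 and 132 in *Cflar*-null D387A, with *Ahsg* at 0 in the third, and 6 of 8 fell (median -3.26, against -0.01). Averaged over all intestines, *Afp*, *Hnf4a* and *Ttr* were at 314, 146 and 119 RPKM, but *Alb* was at 8.93 and *Apoh* at 0.816. The sum therefore does not by itself show liver tissue in the samples. Stomach markers, led by *Tff2* where high, ranged from 4.93 to 195 RPKM among the D387A set controls alone, with *Muc5ac* and others at 0 in many libraries, and 4 of 7 tested fell in *Cflar*-null D387A (median -2.80, against -0.01). The part of these tissues in the comparisons was not tested.

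Across the 18 D387A intestines, the genes most like each ligand were ranked by Pearson r of log2 CPM, as a description only, since points share genotypes. For *Cxcl9* they were *Serpina3f*, *Rrp1b*, *Abcf2*, *Psme3* and *Slc16a3*, each at 0.98. Across the 12 C362A intestines *Serpina3f*, a serine protease inhibitor, was at 0.99 and *Rrp1b* at 0.91, but *Slc16a3* at 0.71, *Psme3* at 0.63 and *Abcf2* at 0.51. For *Cxcl10* they were *Atf3*, a stress-induced transcription factor (0.98 and 0.99 in the respective sets), *Cxcl11* (0.97 and 0.99), *Ubd*, a ubiquitin-like modifier (0.97 and 0.99), *H2-Q6*, a class Ib histocompatibility gene (0.97 and 0.99), and *E2f3* (0.97 and 0.86). For *Cxcl11* they were *Slc2a6* (0.99 and 0.99), *H2-Q6* (0.98 and 0.99), *Ubd* (0.98 and 1.00), *Oas2* (0.98 and 0.99) and *Atf3* (0.98 and 0.99). The lists of *Cxcl10* and *Cxcl11* share *Atf3*, *Ubd* and *H2-Q6*, and neither holds a gene of the *Cxcl9* list. *Cxcl9* itself was at 0.70 and 0.80 with *Cxcl10* and at 0.57 and 0.72 with *Cxcl11*. By Spearman rho none of these genes was among the 5 most like its ligand in the D387A set.

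The promoters of *Cxcl9* and *Cxcl10* are shown because these neighbours parted under *Casp1* loss. Each runs 5′ to 3′ on the minus strand from 250 bases before to 50 bases after the RefSeq start of GRCm38.p6, at chr5:92328030-92328329 for *Cxcl9* and chr5:92348840-92349139 for *Cxcl10*. Capitals mark matches, searched on both strands, to the core of the interferon-stimulated response element (GAAANNGAA) and to the κB motif.
Cxcl9: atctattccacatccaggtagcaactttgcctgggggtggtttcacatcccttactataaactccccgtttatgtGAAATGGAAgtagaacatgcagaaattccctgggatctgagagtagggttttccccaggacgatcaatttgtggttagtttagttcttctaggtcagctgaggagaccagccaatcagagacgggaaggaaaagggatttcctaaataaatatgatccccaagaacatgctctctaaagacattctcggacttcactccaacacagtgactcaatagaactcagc
Cxcl10: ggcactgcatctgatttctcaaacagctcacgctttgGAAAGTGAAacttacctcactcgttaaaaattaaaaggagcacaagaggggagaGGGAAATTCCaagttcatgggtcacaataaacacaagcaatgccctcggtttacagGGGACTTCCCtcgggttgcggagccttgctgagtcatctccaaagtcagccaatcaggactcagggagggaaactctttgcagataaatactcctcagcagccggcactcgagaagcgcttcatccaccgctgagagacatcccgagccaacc
Both hold 1 match to the core of the interferon-stimulated response element, and *Cxcl10* holds 2 matches to the κB pattern searched, of 10 letters, where *Cxcl9* holds none. Neither holds the gamma-activated site in the form searched for (TTCNNNGAA). Other forms of these sites were not searched for, so a site of another form may be present. Of 32851 mouse promoters of this length 8.56% hold the response element core, 8.30% the gamma-activated site and 4.51% the κB motif. The matches describe these letters in these windows.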

How the data were processed

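Libraries were grouped by the genotypes, source and replicate numbers of the labels, and all 36 were used. The authors deposited a table for each library with read counts and RPKM per gene, aligned by them with GSNAP to GRCm38. The deposited counts were the values tested. The deposited RPKM was used as an alternative only, and the gene width in the authors' tables served to compute RPKM.

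D387A intestines, C362A intestines and MEFs were each fitted as a set on all genes that passed edgeR's filter, with TMM scaling and a prior count of 0.125 (edgeR 4.0.16 quasi-likelihood tests, R 4.3.3, Benjamini-Hochberg adjustment over all genes tested). Alternatives used limma 3.58.1 and DESeq2 1.42.0. Tables, exact permutation tests of the ligand ratios and figures were made with Python 3.11.15, numpy 2.4.6, pandas 2.3.3, scipy 1.17.1 and matplotlib 3.10.9. The steps were tested on simulated data. Where a group had 1 to 3 reads in all, the ratio of CPM is given with an exact 95% binomial interval. Depth limits *Cxcr3*, *Cxcl11* in controls and *Ifng*.

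The members and lists were chosen with earlier results of these data known. The genes named are the members, the genes removed by the genotypes, 5 neighbours on the chromosome, at most 4 of each list by abundance, and the 5 genes most like each ligand, with others marked where they appear. Of the 4 members, 3 had an entry in the RefSeq promoter table, and *Cxcl11* had none.

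MEF replicates with the same number resembled each other across genotypes (correlation 0.18 to 0.31 in 3 of 3 pairs, with 6 of 6 libraries closest to one of their own number), so the MEF comparison is also given with the replicate number as a block.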

Additional observations from a re-analysis of the deposited data

Results flagged for a closer look

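The rise in *Cflar*-null D387A against *Mlkl*-/- samples differed between intestines and MEFs, which an interaction term tested in edgeR. The difference in log2 fold change was 5.51 for *Cxcl9* and 3.74 for *Cxcl10*, larger in intestines for both. Whole tissue and cultured cells differ in cell types, age and library preparation, and which of these bears on the difference was not tested.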

How the results depend on the processing

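Most values kept direction and call. Of the member fold changes under alternatives other than leaving out a library, 442 kept both, 9 reversed, 14 became called and 4 lost their call; with a library left out the numbers were 350, 26, 16 and 16. All ratio differences kept their direction, 30 under other settings and 108 with an embryo left out. The call of a ratio could not change within a set, where no p under 0.1 is possible. Counts of genes called stayed within 1.5 times in 112 cases and moved in 14 under settings other than leaving out a library, and in 101 and 7 with a library left out. The cause was not tested unless a cause is given.

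Log2 fold changes under other settings. With both *Mlkl*-/- intestine groups pooled, *Casp8* 1xDA/1xDA against controls was 0.04 for *Cxcl9*, 0.25 for *Cxcl10* and 0.07 for *Cxcr3*, and 3 genes were called; *Cxcr3* against controls was 0.09 in *Casp1*-null, 0.00 in *Casp1*/*Ifnar1*-null and 1.10 (called) in *Casp1*/*Fadd*-null D387A and 0.86 (not called) in *Casp1*-null C362A. By limma, *Casp1*/*Fadd*-null D387A against controls was 1.99 for *Cxcl9* (not called) and 1.01 for *Cxcr3* (called); *Ifnar1* loss was 2.41 for *Cxcl11* (called) and 0.02 for *Cxcr3*; *Fadd* loss was 1.77 for *Cxcl11* and 1.11 for *Cxcr3* (both called); *Cxcr3* under *Cflar* loss in C362A was -1.04 (called); and the *Casp1* interaction of *Cxcl11* was -0.82. By DESeq2, *Cxcr3* under *Fadd* loss was 1.03 (called), with 3 genes called in *Casp8* 1xDA/1xDA and 36 in MEFs. Without a filter, and so with more genes tested, *Cxcl11* was 1.12 under *Casp1* loss in D387A (called), 1.46 under *Ifnar1* loss (called) and 1.00 under *Casp1* loss in C362A (not called); *Fadd* loss was -1.24 for *Cxcl9* and 1.02 for *Cxcr3* (both called); the *Casp1* interaction of *Cxcl9* was 1.16 (called); and 14 genes were called in *Casp8* 1xDA/1xDA and 45 in MEFs. With the replicate number as a block, *Cxcl11* was 1.82 under *Ifnar1* loss (called), *Cxcr3* 1.04 under *Fadd* loss (called), the *Casp1* interaction of *Cxcl11* -0.22 and the source interaction of *Cxcr3* 0.09, with 19 genes called in MEFs. Same-number replicates did not pair in the intestines (9 of 45 pairs above 0.1 and 8 of 18 libraries closest to their own number in the D387A set, 4 of 18 and 2 of 12 in the C362A set). A prior count of 2 took *Cxcr3* in *Casp1*-null C362A against controls to 0.99.

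With fewer genes, those with a mean of 50 reads or more, 524 genes were called in *Casp1*-null D387A and 1454 in *Casp1*/*Ifnar1*-null D387A against controls, 1581 under *Casp1* loss in D387A and 573 under *Ifnar1* loss. With fewer samples, only those of the groups compared, 7 were called in *Casp8* 1xDA/1xDA, 456 in *Casp1*-null D387A against controls, 411 under *Ifnar1* loss and 322 under *Fadd* loss.

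Lowest and highest log2 fold changes with a library left out, for results whose direction or call changed with at least 1 of them, follow. Against D387A set controls, *Casp8* 1xDA/1xDA gave -0.62 to 0.06 for *Cxcl9*, -0.60 to 0.07 for *Cxcl10* and -0.35 to 0.32 for *Cxcr3*; *Cxcr3* gave -0.58 to 0.33 in *Casp1*-null, -0.43 to 0.24 in *Casp1*/*Ifnar1*-null and 0.67 to 1.34 in *Casp1*/*Fadd*-null D387A, where *Cxcl9* gave 1.74 to 2.42. *Casp1* loss in D387A gave -1.21 to 0.32 for *Cxcl10* and -0.96 to 1.64 for *Cxcl11*. *Ifnar1* loss gave -0.13 to 1.06 for *Cxcl9*, 0.22 to 1.76 for *Cxcl10*, 0.96 to 3.55 for *Cxcl11* and -0.31 to 0.43 for *Cxcr3*, with 582 to 1740 genes called. *Fadd* loss gave -1.61 to -0.42 for *Cxcl9*, 0.11 to 1.65 for *Cxcl10*, 0.30 to 2.89 for *Cxcl11* and 0.78 to 1.52 for *Cxcr3*. In the C362A set, *Cxcr3* gave 0.81 to 1.15 in *Casp1*-null C362A against controls and -1.33 to -0.66 under *Cflar* loss, *Cxcl10* gave -0.13 to 0.17 under *Casp1* loss and -1.37 to -0.98 under *Cflar* loss, and *Cxcl11* gave 0.83 to 1.16 under *Casp1* loss. *Cxcl10* in MEFs gave 2.23 to 2.56, with 2 to 14 genes called. The *Casp1* interaction gave 0.30 to 1.48 for *Cxcl9*, -1.20 to 0.33 for *Cxcl10* and -1.93 to 0.65 for *Cxcl11*, and the source interaction -0.68 to 1.74 for *Cxcr3*.

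Of the other values, mean RPKM moved by more than 1 SD in 13 cases, mostly with the deposited RPKM, whose totals differ, and by less in 83. The likeness to its ligand moved for *E2f3* (0.86), *Oas2* (0.86) and *Atf3* with *Cxcl11* (0.87) by Spearman rho. With the *Casp1*-null D387A embryos left out in turn, an alternative chosen after seeing the data, list counts under *Casp1*, *Ifnar1* and *Fadd* loss moved by more than 1.5 times in 58 cases and not in 131. The report gives those for the counts it states.

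Limits are few but bear on every value. Each group has 3 replicates, so an exact test within a set cannot pass the threshold. The numbers that open the D387A set titles are shared by controls and *Cflar*-null D387A and differ for the other genotypes, and the labels do not say what they stand for. The labels and the paper name different library kits, and strand use in counting is not settled. Bulk tissue does not show which cells made a transcript, and protein was not measured.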
